A study of Mus musculus with 6 samples.

Results

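Mammalian sirtuins are enzymes that consume NAD+ to remove acetyl and other acyl groups from proteins, and FoxO factors are forkhead transcription factors that sirtuins deacetylate. The mRNA of 10 genes of these families, Sirt1 to Sirt7, Foxo1, Foxo3 and Foxo4, was followed in HT22 cells, an immortalized mouse hippocampal neuronal cell line. The genes were taken by name, with earlier results of these data known, and all 10 were found among the 21878 genes of the expression table. RNA-seq was available from 6 libraries, the input libraries of an m6A immunoprecipitation experiment, with 3 in the control group and, for comparison, 3 in the group treated with aluminum maltolate, called the Al group. The Al group received 120 µM for RNA sequencing. A duration of 24 h is given for the treatments in general, and none separately for these libraries. The sample labels give the groups as the letters C and M, and M was taken as the Al group because the series holds control and Al cells only. No genetic change is given for the cells of either group, and the methods define a control in DMEM alone and, apart from it, one with maltol, the ligand without aluminum. The sequenced group is named only control, and what its cells received is not stated separately.

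Sirtuins differ mainly in where they work. Sirt1, Sirt6 and Sirt7 act in the nucleus, Sirt2 acts mostly in the cytosol, and Sirt3, Sirt4 and Sirt5 act in mitochondria. In neurons they have been studied for their roles in energy metabolism, DNA repair and aging. FoxO proteins are held in the cytosol by 14-3-3 proteins after phosphorylation by Akt, and in the nucleus they activate genes of cell cycle arrest, antioxidant defence, autophagy and apoptosis. Foxo1, Foxo3 and Foxo4 are the widely expressed members. Foxo6, the fourth member, had at most 1 read in any library and was not tested.

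The letters FoxO proteins bind were searched in the region from 250 bases before to 50 after each transcription start site, taken from RefSeq on GRCm38.p6. The FoxO motif GTAAACA was looked for on both strands and was found in 3.65% of 32851 such windows, or in at least 1 window of 4.05% of 27025 genes, as a gene can have several. Of the 9 members with a window (11 windows in all), 0 held it, and Foxo4 had no window to search. Of 27 genes from a list of FoxO targets, with 33 windows, 5 genes held the motif, in 1 window each, and these are printed because they carry the letters through which the factors are known to act. Each line runs 5′ to 3′ on the strand of the gene with the motif, or its reverse complement, in capitals. The windows are chr2:128125799-128125829 (plus strand) for Bcl2l11, chr3:96557824-96557854 (plus) for Txnip, chr4:134314914-134314944 (plus) for Trim63, chr7:16310082-16310112 (plus) for Bbc3 and chr10:41810584-41810614 (plus) for Sesn1.
Bcl2l11: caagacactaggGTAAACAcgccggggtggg
Txnip: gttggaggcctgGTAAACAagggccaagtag
Trim63: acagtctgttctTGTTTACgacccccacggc
Bbc3: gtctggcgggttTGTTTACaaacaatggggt
Sesn1: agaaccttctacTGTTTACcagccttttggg
In the limma fit across all genes, Bbc3 and Txnip were called higher in the Al group, with log2 fold changes of 0.84 and 0.73. The call of Bbc3 was lost on FPKM as deposited, at 0.36, and when libraries were scaled to the same sum, at 0.07. Txnip was at 0.25 and -0.05 under the same settings and at 0.27 with quantile normalization, and its call was lost under these 3 as well as without control replicate 3, at 0.41, without Al replicate 1 and with no filter on low values. Bcl2l11 and Sesn1 were called lower, at -0.77 and -0.87, but with quantile normalization they were at -0.49 and -0.58 and both calls were lost, as was that of Bcl2l11 with a pseudocount of 1, at -0.51. Trim63, with at most 4 reads in any library, was not tested. With size factors the motif was thus present in windows of genes called in either direction.

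Among the sirtuin windows, Sirt6 and Sirt7 were the only ones of the 9 members to hold the NRF-1 core GCGCATGC, which was present in 2.71% of all windows and in 3.05% of genes. They also held CCGGAAG, the letters bound by GABP, an ETS family factor also named NRF-2, which was present in 8.86% of windows and in 9.93% of genes and, among the members, in 1 of the 2 windows of Sirt3 as well. NRF-1 and NRF-2 are known as regulators of mitochondrial biogenesis, so 1 window of each gene is given whole, with these motifs in capitals, on the minus strand of chr10:81627517-81627816 for Sirt6 and of chr11:120624965-120625264 for Sirt7. Sirt6 has a second window, chr10:81627273-81627572, which held neither motif. In the first the NRF-1 core can be read on both strands of the same 10 bases.
Sirt6: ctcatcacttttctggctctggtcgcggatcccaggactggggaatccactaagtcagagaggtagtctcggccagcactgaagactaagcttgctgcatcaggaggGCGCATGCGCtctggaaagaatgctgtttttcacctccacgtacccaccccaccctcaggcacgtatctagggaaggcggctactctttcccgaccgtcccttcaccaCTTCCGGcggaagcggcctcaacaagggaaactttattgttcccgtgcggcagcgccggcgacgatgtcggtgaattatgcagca
Sirt7: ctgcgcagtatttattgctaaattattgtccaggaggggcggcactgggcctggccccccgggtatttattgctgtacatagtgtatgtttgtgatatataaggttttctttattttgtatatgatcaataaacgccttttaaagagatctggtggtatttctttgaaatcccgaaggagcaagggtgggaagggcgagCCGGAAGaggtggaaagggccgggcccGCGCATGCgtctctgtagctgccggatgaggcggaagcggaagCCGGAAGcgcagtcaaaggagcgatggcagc
In the comparison of the groups with size factors, Sirt6 mRNA was lower and Sirt7 mRNA was higher in Al cells at an adjusted P under 0.05, but Sirt7 lost this on FPKM as deposited, at 0.09, and turned to -0.21 with equal sums. Of the 9 members with a window, Sirt1 alone held the E-box CACGTG, found in 7.15% of all windows and in 8.09% of genes, at 2 places on the minus strand, chr10:63339133-63339162 and chr10:63339061-63339090.
Sirt1 upstream E-box: gcggcgcccggcCACGTGacccggcgtgtt
Sirt1 downstream E-box: ggaggggcgggtCACGTGacggggtttaaa
These matches describe the letters of the windows, and binding of a factor there was not measured.

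Reads counted in genes were recovered from the steps between FPKM values, as the smallest whole numbers these steps allow. They summed to 37768842 to 44220124 in control and 20973691 to 26487603 in Al libraries, so the values of the Al group rest on fewer reads. These sums are not the numbers of reads sequenced. The 50 genes with the highest FPKM took 18.7% ± 0.700 (SD, n = 3) of all FPKM in the control group against 31.5% ± 1.34 in the Al group. Before the groups were compared, each library was scaled by its median-of-ratios size factor, between 0.802 and 1.21, and such values are called scaled FPKM. The cells were checked against marker genes. Of 14 neuron markers, Tubb3 and Eno2 had a mean scaled FPKM of at least 1, and Snap25, Nefm and Neurod1 were at 0 in every library. The 14 markers summed to between 6.58 and 8.13 scaled FPKM in the control libraries and to between 4.86 and 8.12 in the Al libraries. Of 7 fibroblast markers, 6 reached a mean of at least 1, and their sum was 2104 to 3382 in the control group against 3678 to 5218 in the Al group, carried by Col1a1, Col1a2 and Col3a1. Against this sum, the means of Dcn (8.08 and 2.28), Pdgfra (11.3 and 4.80) and Lum (0.763 and 0.0463) were lower in the Al group. Of 7 astrocyte markers, Slc1a3 and Gja1 reached a mean of 1, Aqp4 was at 0, and their sum was 27.7 to 35.9 in control against 36.7 to 46.3 in Al libraries. Both went opposite ways, with Slc1a3 at a mean of 15.9 in control against 1.96 in Al libraries and Gja1 at 16.7 against 38.8. Of 7 microglia markers, Tmem119 alone reached a mean of 1, and their sum was 33.6 to 41.4 in control against 23.9 to 90.6 in Al libraries. The 8 oligodendrocyte markers summed to 0.284 to 0.637 in control against 1.37 to 2.26 in Al libraries. The 6 endothelial markers summed to 0.122 to 0.233 against 0.577 to 0.758. The part of these marker differences in the results was not tested. In bulk RNA, fewer cells with a transcript and less of it in each cell cannot be told apart.

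In the control group Sirt2 mRNA was the most abundant of the 10 and Sirt5 mRNA the least. Levels between genes were compared as deposited FPKM, which is per length. Sirt2 stood at 39.0 ± 0.616 FPKM (SD, n = 3), followed by Foxo3 at 15.9 ± 0.796 and Sirt7 at 12.3 ± 1.34, and the ranges of these 3 genes did not overlap. Foxo4 at 10.6 ± 0.248 and Sirt6 at 10.04 ± 1.06 overlapped each other. Next came Sirt4 at 4.81 ± 0.387, Sirt3 at 4.32 ± 0.421, Foxo1 at 3.94 ± 0.306 and Sirt1 at 3.40 ± 0.374, each of which overlapped its neighbour. Sirt5 was apart from the rest at 0.922 ± 0.313. In the Al group Sirt2 remained first at 19.6 ± 0.657 deposited FPKM, but Sirt7 at 13.0 ± 0.182 now stood above Foxo3 at 7.40 ± 2.08, without overlap. The ranges of Foxo3, Sirt4, Foxo4 and Sirt6 overlapped from neighbour to neighbour, and those of Sirt1, Sirt3 and Foxo1 did so as well. Sirt5 was again last at 0.405 ± 0.0784.

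To see which of these mRNAs differed between the groups, limma was fitted to the 12889 genes whose FPKM averaged 0.1 or more. Calls needed an unadjusted P below 0.05 together with a log2 fold change beyond 0.58 in either direction, which are the thresholds of the study. Of the 10 members, Sirt1 and Sirt4 were called higher and Foxo3 and Foxo4 lower in the Al group. Among all genes tested, 26.2% were called higher and 24.4% lower, so 2 of 10 in either direction is near that background. With an adjusted P under 0.05 alone, a rule added after the data were seen, Sirt7 joined the higher genes and Sirt2 and Sirt6 the lower ones, making 3 higher and 4 lower against 32.2% and 29.9% of all genes. The scaled values of the groups did not overlap for 7 of the 10, with 3 above and 4 below the control group, and groups did not overlap for 68.1% of all genes, with 35.1% above and 33.1% below.

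**Figure D1:**
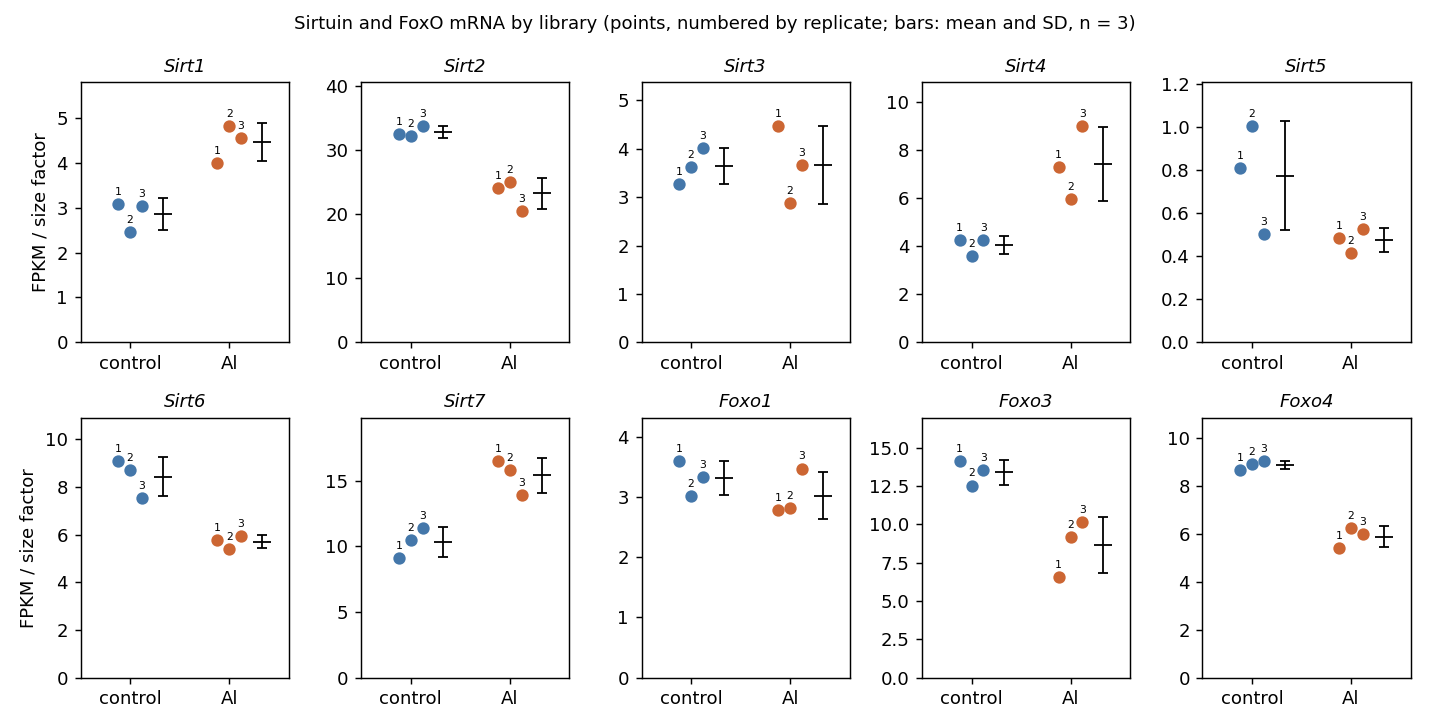
Scaled FPKM (vertical axis, from 0) of each of the 10 genes in the 3 control and 3 Al libraries, with points numbered by replicate and bars for the mean and SD. Sirt1, Sirt4 and Sirt7 lie higher and Sirt2, Sirt6, Foxo3 and Foxo4 lower in every Al library than in every control library, while Sirt3, Sirt5 and Foxo1 overlap.

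Of the nuclear sirtuins, Sirt1 (chr10:63319005-63381704, minus strand, GRCm38) encodes a deacetylase of FoxO proteins, p53 and PGC-1α. Its scaled FPKM was 3.09, 2.46 and 3.04 in the control libraries against 3.99, 4.83 and 4.54 in the Al libraries. All 3 Al libraries were above the control libraries. The mean rose from 2.86 ± 0.351 to 4.46 ± 0.425 (SD, n = 3), a fold of 1.56, with a log2 fold change of 0.62 ± 0.15 (SE) and a limma adjusted P of 0.00691, but this direction turned to -0.14 when each library was scaled to the same sum. On FPKM as deposited it was 0.15 and not called. The call was also lost with a pseudocount of 1, at 0.50, without control replicate 2, at 0.51, and without Al replicate 2, at 0.57, as the fold change then fell under the threshold. Sirt1 rested on 252 to 311 reads in the control group against 167 to 175 in the Al group, given as the smallest whole numbers that the FPKM steps allow, and its exons share 65 bases with the antisense gene Gm16145.

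Sirt6 (chr10:81621785-81627797, minus strand) encodes a chromatin deacetylase with a role in DNA repair. It had scaled FPKM of 9.09, 8.71 and 7.52 in the control group against 5.77, 5.41 and 5.95 in the Al group. The highest Al library was thus below the lowest control library. The mean was 8.44 ± 0.818 against 5.71 ± 0.274, and the log2 fold change of -0.55 ± 0.12 had a limma adjusted P of 0.0037 but missed the fold change threshold. These values rested on 1225 to 1423 reads in the control group against 300 to 384 in the Al group. Without control replicate 3 the fold change was -0.64 and passed, as it did on FPKM as deposited, at -1.03, and with equal sums, at -1.33.

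Sirt7 (chr11:120618372-120625240, minus strand) encodes the nucleolar sirtuin, which acts on ribosomal RNA transcription. Control libraries 1 to 3 held 9.13, 10.5 and 11.4 scaled FPKM, and the Al libraries held 16.5, 15.8 and 13.9. The groups did not overlap. From 10.4 ± 1.15 in the control group the mean was higher, at 15.4 ± 1.34, in the Al group, with a log2 fold change of 0.57 ± 0.12 and a limma adjusted P of 0.0032, just under the fold change threshold, and the sign turned to -0.21 with libraries scaled to the same sum. It passed the threshold at 0.63 without control replicate 3 and at 0.65 without Al replicate 3. Sirt7 shares 124 exon bases with Mafg on the same strand, so reads from that stretch could belong to either gene.

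The cytosolic Sirt2 (chr7:28766735-28788661, plus strand), a tubulin deacetylase abundant in brain, was lower in the Al group. Its scaled FPKM was 32.5, 32.2 and 33.8 in the control libraries, a narrow range, against 24.1, 25.03 and 20.6 in the Al libraries. No Al library reached the control range. The mean was 32.8 ± 0.88 in the control group against 23.2 ± 2.36 in the Al group, and the log2 fold change of -0.50 ± 0.10 had a limma adjusted P of 0.00279, short of the fold change threshold. Sirt2 passed it and was called lower with quantile normalization, at -0.73, on FPKM as deposited, at -0.99, and with equal sums, at -1.29. At 3250 to 3923 reads in the control and 898 to 1144 in the Al libraries it was the most deeply covered sirtuin. Sirt2 shares 42 exon bases with Nfkbib on the opposite strand.

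Of the mitochondrial sirtuins, Sirt4 rose, and Sirt3 and Sirt5 did not pass the test. Sirt4 (chr5:115478010-115484725, minus strand), a mitochondrial lipoamidase and ADP-ribosyltransferase that restrains glutamate dehydrogenase, had 4.27, 3.61 and 4.26 scaled FPKM in the control libraries against 7.29, 5.97 and 9.02 in the Al libraries. Every Al library was above every control library, and Al replicate 3 was the highest. The mean rose from 4.045 ± 0.379 to 7.42 ± 1.53, a fold of 1.84, with a log2 fold change of 0.84 ± 0.17 and a limma adjusted P of 0.00238. With size factors this was the largest increase among the 10 genes, and 79.3% of all tested genes had a lower fold change. It stayed between 0.71 and 0.999 when any 1 library was left out, and the call was lost on FPKM as deposited, at 0.37, and with libraries scaled to the same sum, at 0.07.

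Sirt3 (chr7:140863666-140882309, minus strand), the main mitochondrial deacetylase, had 3.27, 3.62 and 4.01 scaled FPKM in the control group against 4.48, 2.87 and 3.66 in the Al group. The Al libraries held both the highest and the lowest of the 6 values. The log2 fold change of -0.00 ± 0.18, with a 95% confidence interval from -0.42 to 0.41, had a limma adjusted P of 0.988. Changes within that interval were not excluded. Sirt3 was called lower with equal sums, at -0.77. Sirt3 shares 418 exon bases with Ric8a and 342 with Psmd13, both on the opposite strand. The methods name a stranded library kit, but whether counting used strand is not given in the sources used here.

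Sirt5 (chr13:43365496-43395203, plus strand), a mitochondrial desuccinylase, was the lowest of the 10, with 0.808, 1.01 and 0.505 scaled FPKM in the control libraries against 0.484, 0.413 and 0.526 in the Al libraries. Control replicate 3 fell within the Al range. The log2 fold change was -0.56 ± 0.29, with an interval from -1.22 to 0.09 and a limma adjusted P of 0.117, and the difference passed the test without control replicate 3, at -0.81, and under the other 3 scalings, at -0.69 to -1.23. Sirt5 rested on 22 to 31 reads in the Al group and 79 to 158 in the control group. Its longest transcript also shares stretches of at least 200 bases at 90% identity or more with transcripts of other genes, among them Wdr31 and Xpnpep1, so its count is uncertain.

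Among the FoxO factors, Foxo3 and Foxo4 fell and Foxo1 did not pass the test. Foxo3 (chr10:42181841-42276755, minus strand), a factor linked to longevity and neuronal stress responses, had 14.1, 12.5 and 13.6 scaled FPKM in the control libraries against 6.59, 9.19 and 10.1 in the Al libraries. Al replicate 1 was the lowest, and all 3 Al libraries were below the control range. The mean fell from 13.4 ± 0.809 to 8.63 ± 1.83, a ratio of 0.644, with a log2 fold change of -0.65 ± 0.16 and a limma adjusted P of 0.00704. With size factors it had the lowest fold change of the 10 genes, and 24.04% of all tested genes were lower still. With quantile normalization Foxo3 was at -0.62, behind Sirt2 at -0.73 and Sirt5 at -0.69. Without control replicate 3 it was at -0.65, behind Sirt5 at -0.81. Without Al replicate 1 it was at -0.46, behind Sirt2, Sirt5, Sirt6 and Foxo4, and the call was lost. Foxo3 was read deeply, with 4354 to 4849 reads in the control group against 964 to 1363 in the Al group.

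Foxo4 (chrX:101254528-101260873, plus strand), whose protein is known to bind p53 in senescent cells, had 8.69, 8.92 and 9.05 scaled FPKM in the control libraries, the tightest control values of the 10 genes, against 5.41, 6.27 and 6.003 in the Al libraries. The groups were well apart. The mean fell from 8.89 ± 0.183 to 5.90 ± 0.439, with a log2 fold change of -0.59 ± 0.11 and a limma adjusted P of 0.00174. This lay just over the fold change threshold, and the call was lost without Al replicate 1, at -0.52, with quantile normalization, at -0.43, and with a pseudocount of 1, at -0.52.

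Foxo1 (chr3:52268336-52353221, plus strand), known as the insulin-responsive factor of liver and other tissues, had 3.60, 3.02 and 3.33 scaled FPKM in the control group against 2.78, 2.81 and 3.48 in the Al group. Al replicate 3 lay within the control range and the other 2 Al libraries lay below it. The log2 fold change of -0.13 ± 0.16, with an interval from -0.49 to 0.22, had a limma adjusted P of 0.472, and the sign turned to 0.19 with quantile normalization, while Foxo1 was called lower on FPKM as deposited, at -0.61, and with equal sums, at -0.90. An antisense gene, Gm20402, overlaps its exons over 674 bases. Summed over the family, FoxO mRNA was 25.6 ± 1.01 scaled FPKM in the control group against 17.6 ± 2.49 in the Al group without overlap of the libraries, whereas the 7 sirtuins summed to 62.9 ± 1.42 and 60.4 ± 2.22 with overlap. On FPKM as deposited, however, the sirtuin sum was 74.8 ± 1.10 against 51.2 ± 2.69 and the FoxO sum 30.4 ± 0.858 against 15.0 ± 3.21, both without overlap, so whether total sirtuin mRNA was lower depended on the scaling.

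The size and even the sign of these differences depended on how libraries were set to a common scale. Against the scaled FPKM, the median over all tested genes of the log2 fold change moved by -0.46 on FPKM as deposited, by -0.75 with libraries scaled to the same sum as in TPM, and by -0.06 with quantile normalization. Of all genes called, 51.8% were higher with size factors, 24.99% on FPKM as deposited, 14.9% with equal sums and 47.6% with quantile normalization. On FPKM as deposited, 0 members were called higher and 6 lower by limma (Sirt2, Sirt5, Sirt6, Foxo1, Foxo3 and Foxo4), 0 were higher and 6 lower at an adjusted P under 0.05 alone, and 7 of the 10 lay below the control group in every Al library, as did 50.1% of all genes on that scale, while 0 lay above it in every Al library, against 20.1% of all genes. Of all genes, 14.0% were called higher and 42.0% lower there. With equal sums, 0 members were called higher and 7 lower, with Sirt3 added, beside 9.31% and 53.1% of all genes. Quantile normalization gave 2 higher, Sirt1 and Sirt4, and 3 lower, Sirt2, Sirt5 and Foxo3, beside 22.1% and 24.3% of all genes.

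Size factors, FPKM as deposited and equal sums differ by 1 factor for each library, so the distance of a gene from the median gene is nearly the same in these 3 by construction, and quantile normalization is the one scaling that could alter it. Sirt1 stood above the median gene by 0.59 on the log2 scale with size factors and by 0.95 with quantile normalization. Sirt4 stood above it by 0.81 and 1.11 in the same order, and Sirt7 by 0.54 and 0.59. These 3 sirtuins were thus above the median gene under both. Foxo3 stood at -0.68 and -0.59 relative to the median, Foxo4 at -0.62 and -0.40, Sirt2 at -0.53 and -0.70, Sirt5 at -0.60 and -0.66, and Sirt6 at -0.58 and -0.35. Sirt3 at -0.03 and Foxo1 at -0.16 were below it with size factors and above it, at 0.34 and 0.22, with quantile normalization.

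**Figure D2:**
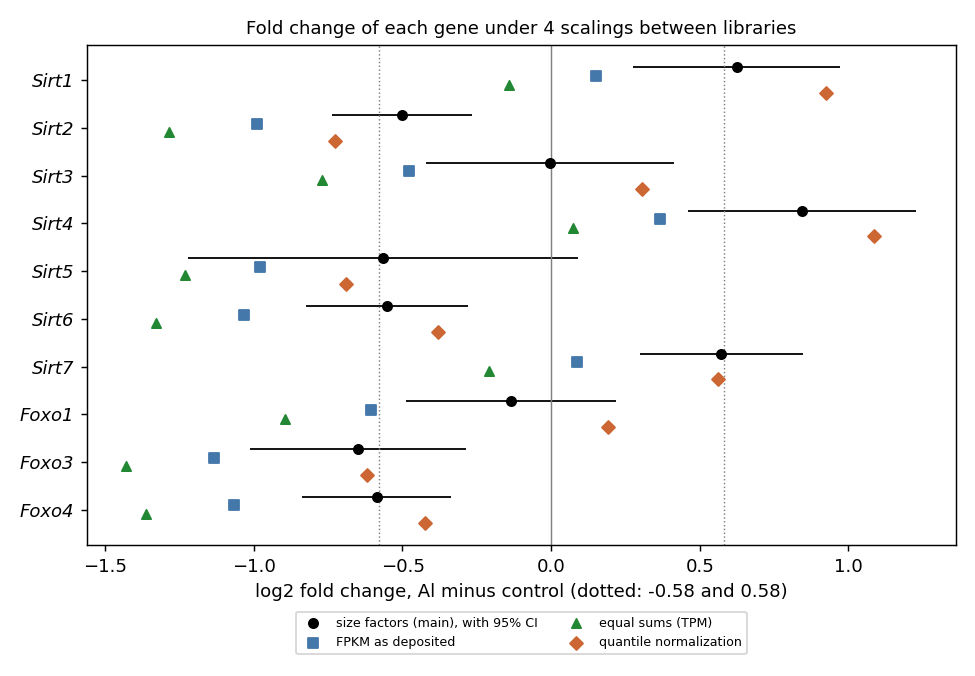
Log2 fold change (Al minus control, horizontal axis) of each gene with size factors (black, with its 95% confidence interval), on FPKM as deposited, with libraries scaled to equal sums and with quantile normalization, with dotted lines at -0.58 and 0.58. Sirt2, Sirt5, Sirt6, Foxo3 and Foxo4 are below 0 in all 4 and Sirt4 is above 0 in all 4, while Sirt1, Sirt3, Sirt7 and Foxo1 lie on both sides.

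A share of the family total within a library is the same under any scaling factor, and these shares are given as a description. Sirt2 made up 52.2% ± 0.310 of sirtuin FPKM in the control libraries against 38.4% ± 3.07 in the Al libraries (SD, n = 3). Sirt7 went from 16.4% ± 1.56 to 25.5% ± 1.36, Sirt4 from 6.42% ± 0.548 to 12.3% ± 2.87 and Sirt1 from 4.54% ± 0.523 to 7.39% ± 0.888. Sirt6 went from 13.4% ± 1.58 to 9.47% ± 0.670. These 5 of 7 shares did not overlap between the groups. Each gave an exact permutation P of 0.1 (two-sided), the smallest that 3 against 3 libraries allow and above 0.05. Scaled values of single genes did not overlap for 68.1% of all genes, and no such background was computed for shares. Sirt3 at 5.77% ± 0.479 and 6.07% ± 1.21 and Sirt5 at 1.23% ± 0.424 and 0.787% ± 0.110 overlapped. The Sirt3 difference, 0.298 percentage points, turned to -0.243 without Al replicate 1, and the Sirt5 difference, -0.447, ran from -0.673 without control replicate 3 to -0.253 without control replicate 2. The same 5 sirtuin shares were also apart when computed from the recovered reads.

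Within the FoxO family, 1 of the 3 shares was apart. Foxo3 held 52.3% ± 1.14 of FoxO FPKM in the control libraries against 48.8% ± 3.75 in the Al libraries, and Foxo4 held 34.8% ± 1.78 and 33.9% ± 3.03, both with overlap. The difference for Foxo3, -3.47 percentage points, was -1.34 without Al replicate 1, and that for Foxo4, -0.905, turned to 0.71 without Al replicate 3. Foxo1 held 12.9% ± 0.642 and 17.3% ± 1.74, with every Al library above the control libraries (exact permutation P = 0.1). Foxo1 mRNA, which did not pass the test on its own, was thus a larger part of a smaller FoxO total.

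**Figure D3:**
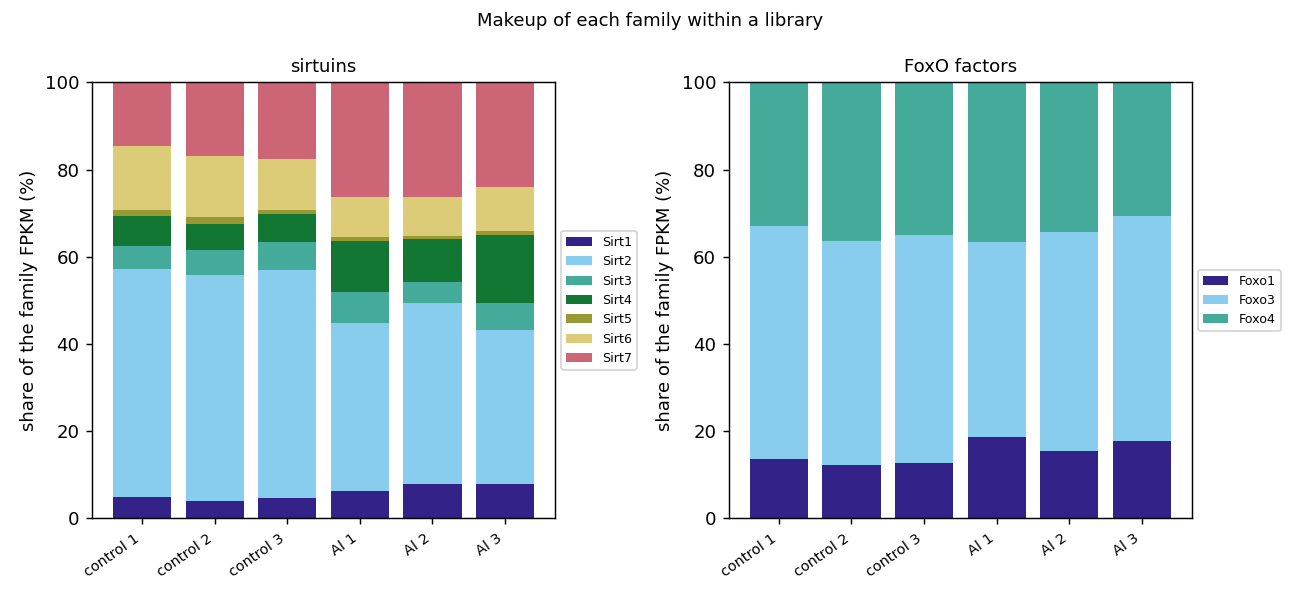
Share of the summed FPKM of the 7 sirtuins (left) and 3 FoxO genes (right) taken by each gene in each of the 6 libraries, in percent. Sirt2 takes 52.2% on average in the control libraries against 38.4% in the Al libraries, where Sirt7 and Sirt4 are wider, while Foxo3 and Foxo4 keep similar widths in both groups.

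Ratios between members within a library do not depend on a scaling factor either. The log2 ratio of Sirt2 to Sirt1 was 3.53 ± 0.16 in the control group against 2.38 ± 0.21 in the Al group, a difference of -1.15. Sirt6 to Sirt1 differed by -1.20 and Sirt5 to Sirt1 by -1.30, and Foxo1 to Foxo3 by 0.52. These 4 of 8 ratios did not overlap between the groups (exact permutation P = 0.1, two-sided, adjusted to 0.2 over the 8). Scaled values of single genes did not overlap for 68.1% of all genes, and no such background was computed for ratios. Sirt7 to Sirt1 differed by -0.07, Sirt4 to Sirt1 by 0.22, Sirt3 to Sirt1 by -0.65 and Foxo4 to Foxo3 by 0.06, all with overlap. As single libraries were left out, the differences of these last 4 ran from -0.21 to 0.06 for Sirt7, from 0.08 to 0.43 for Sirt4, from -0.88 to -0.42 for Sirt3 and from -0.06 to 0.17 for Foxo4. The sign turned for Sirt7 without control replicate 2 or Al replicate 3 and for Foxo4 without Al replicate 1, and Sirt4 was lowest without Al replicate 3 and highest without Al replicate 2. The 4 ratios that did not overlap kept their sign in each such setting. A ratio does not show which of its 2 mRNAs differed.

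Genes with the pattern most like the members at each end were sought among 10340 other genes that averaged 1 FPKM or more, by the root mean square difference of centred log2 values over the 6 libraries. For Sirt4 these were Pias1 at 0.07, Apoe at 0.07 and Usp54 at 0.08. For Foxo3 they were Atp2c1, Trrap and Auh, each at 0.06. Their log2 fold changes ran from 0.80 to 0.86 beside Sirt4 and from -0.72 to -0.59 beside Foxo3.

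The genes that FoxO factors are known to activate held calls in both directions. Of 29 targets, 23 were tested, and 10 were called higher and 7 lower with size factors, where 26.2% and 24.4% of all genes were. Their median log2 fold change was 0.36 where that of all genes was 0.03. The balance turned to 4 higher and 9 lower on FPKM as deposited, with a median of -0.13. There 14.0% and 42.0% of all genes were called, and their median was -0.43. With equal sums it was 2 and 9, with a median of -0.43, beside 9.31% and 53.1% of all genes and their median of -0.72. Quantile normalization gave 6 and 4, beside 22.1% and 24.3%. Gadd45b, a stress sensor in DNA repair, had 18.0, 20.4 and 24.9 scaled FPKM in the control and 164, 140 and 80.9 in the Al libraries and rose by 2.55 ± 0.24 on the log2 scale (limma adjusted P = 5.02e-05). Cdkn1a, the p21 inhibitor of cell cycle kinases, rose by 1.61 ± 0.21 and the repressor Bcl6 by 1.23 ± 0.12. The pocket protein gene Rbl2 fell by 1.73 ± 0.27, the cyclin gene Ccng2 fell by 0.99 ± 0.24 and the stress-induced sestrin gene Sesn3 fell by 0.97 ± 0.12 (limma adjusted P at most 0.0062 for all 6 genes). While Foxo3 and Foxo4 mRNA fell, their listed targets therefore held genes of both directions, and target binding was not measured.

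Regulators upstream of FoxO were called higher for 8 and lower for 8 of 34 tested, from a list of 36, near the 26.2% and 24.4% of all genes, and had a median of 0.16. On FPKM as deposited 1 was called higher and 12 lower, with a median of -0.32, where that of all genes was -0.43. Equal sums gave 1 and 19, and quantile normalization 5 and 7. Over all genes the 3 scalings, in this order, called 14.0% and 42.0%, 9.31% and 53.1%, and 22.1% and 24.3%. Mdm2, a ubiquitin ligase for p53 and FoxO proteins, had 9.19, 9.26 and 11.5 scaled FPKM in the control and 35.6, 40.7 and 30.7 in the Al libraries and rose by 1.82 ± 0.14. The 14-3-3 gene Ywhae rose by 1.06 ± 0.18 and the ubiquitin ligase gene Skp2 by 1.05 ± 0.09, and neither passed the fold change threshold on FPKM as deposited. The kinase gene Stk3, whose product phosphorylates FoxO under oxidative stress, fell by 2.36 ± 0.15, the acetyltransferase gene Kat2b fell by 1.47 ± 0.19 and the JNK gene Mapk9 fell by 1.2 ± 0.12 (limma adjusted P at most 0.00107 for all 6 genes).

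Genes that make or use NAD+, the cosubstrate of sirtuins, were called higher for 4 and lower for 8 of 18 tested, from a list of 23, beside 26.2% and 24.4% of all genes, with a median of -0.33. The counts were 2 and 12 on FPKM as deposited, with a median of -0.82. They were 2 and 13 with equal sums, with a median of -1.11, and 2 and 5 with quantile normalization. Over all genes these scalings called 14.0% and 42.0%, 9.31% and 53.1%, and 22.1% and 24.3%, with medians of -0.43, -0.72 and -0.03. Naprt, which starts NAD+ synthesis from nicotinic acid, rose by 2.15 ± 0.27 from 0.447 ± 0.146 to 2.31 ± 0.571 scaled FPKM, and Nadsyn1, which ends that route, rose by 0.90 ± 0.23. The tankyrase gene Tnks rose by 0.62 ± 0.10, but was at -0.16 with equal sums, and its call was lost at 0.56 without control replicate 3. Nmnat3 and Nmnat2, which form NAD+ from its mononucleotide, fell by 2.26 ± 0.35 and fell by 0.93 ± 0.20, and the nicotinamide methyltransferase gene Nnmt fell by 1.12 ± 0.17 (limma adjusted P at most 0.00779 for all 6 genes).

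Partners and substrates of sirtuins were tested for 31 of 33 genes, with 10 called higher, 6 lower and a median of 0.16, beside 26.2% and 24.4% of all genes. This turned to 4 higher and 12 lower on FPKM as deposited, with a median of -0.33, where that of all genes was -0.43. It turned to 2 and 16 with equal sums and to 5 and 7 with quantile normalization. Of all genes, the 3 scalings called 14.0% and 42.0%, 9.31% and 53.1%, and 22.1% and 24.3%, in this order. Rps19bp1, which encodes an activator of Sirt1, rose by 1.97 ± 0.17 from 21.6 ± 3.16 to 85.9 ± 17.9 scaled FPKM. Npm1, a nucleolar protein gene, rose by 1.14 ± 0.16 and Hic1, a repressor of Sirt1 transcription, rose by 1.08 ± 0.24. The acetyl-CoA synthetase gene Acss2 fell by 0.97 ± 0.20, the ribosomal RNA transcription factor gene Ubtf fell by 0.88 ± 0.10 and the DNA repair gene Xrcc6 fell by 0.88 ± 0.11 (limma adjusted P at most 0.00443 for all 6 genes). With size factors an activator and a repressor of Sirt1 were thus both called higher, as was Sirt1 itself.

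The 2 families related by enzyme class and by DNA-binding domain served as comparison. Of the 11 zinc-dependent histone deacetylases, all tested, 0 were called higher and 7 lower, beside 26.2% and 24.4% of all genes, with a median of -0.81, and with FPKM as deposited, equal sums or quantile normalization 0 were again higher and at least 7 lower. Hdac11 fell by 1.40 ± 0.32, Hdac9 fell by 1.10 ± 0.34 and Hdac4, a neuronal corepressor, fell by 1.04 ± 0.11 (limma adjusted P at most 0.02). By the same rule 2 of the 7 sirtuins were called higher and 0 lower with size factors. The counts were 0 and 3 on FPKM as deposited, 0 and 4 with equal sums and 2 and 2 with quantile normalization. Over all genes these last 3 scalings called 14.0% and 42.0%, 9.31% and 53.1%, and 22.1% and 24.3%. The medians of all genes there were -0.43, -0.72 and -0.03. The difference between the families was not tested. Other forkhead genes were called higher for 2 and lower for 6 of 16 tested, again beside 26.2% and 24.4%, with a median of -0.17, then for 1 and 8 on FPKM as deposited, with a median of -0.66, for 0 and 11 with equal sums, with a median of -0.95, and for 2 and 7 with quantile normalization. Foxm1, a driver of mitosis, rose by 1.15 ± 0.11 and Foxj3 by 0.89 ± 0.09, while Foxn3 fell by 1.6 ± 0.19, Foxp4 fell by 1.31 ± 0.16 and Foxp1 fell by 1.02 ± 0.18 (limma adjusted P at most 0.00109 for all 5 genes). With equal sums, the calls of Bcl6, Ywhae, Skp2, Nadsyn1, Tnks, Npm1, Hic1, Foxm1 and Foxj3, all higher with size factors, were lost. Of these, Ywhae, Skp2, Nadsyn1, Tnks and Foxj3 were not called on FPKM as deposited either, and Ywhae, Tnks and Npm1 were not called with quantile normalization.

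**Figure D4:**
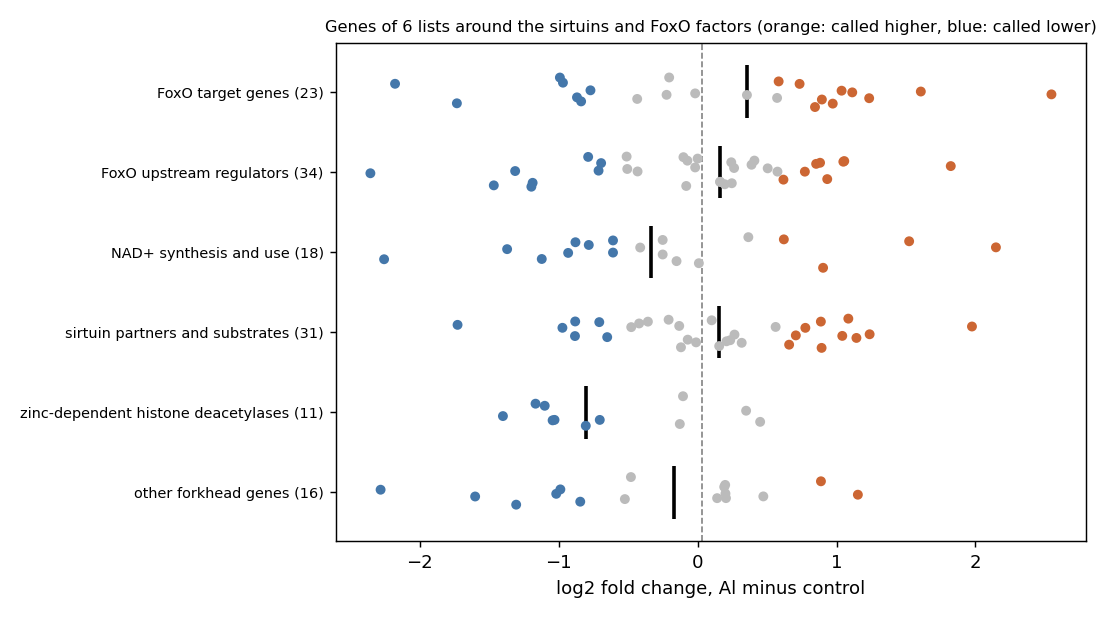
Log2 fold change with size factors (Al minus control, horizontal axis) of each tested gene in 6 lists, with the number tested in parentheses, genes called higher in orange, called lower in blue and others in grey, black bars for list medians and a dashed line for the median of all tested genes at 0.03. The histone deacetylases have their median at -0.81 with no gene called higher, while the other lists hold genes called in both directions.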

How the data were processed

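RNA-seq of HT22 cells was analysed in 6 input libraries, 3 control and 3 Al. According to the methods, the authors used Trimmomatic for trimming, SortMeRNA against ribosomal RNA and HISAT2 for alignment to GRCm38/mm10. They deposited FPKM for each gene and library. The submitters' processing notes name fastp, HISAT2, HTSeq and GRCm39 instead, and the table holds no coordinates, so positions were taken by symbol from GENCODE on GRCm38. The authors called differential genes with DESeq2, which needs counts and was not run here.

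Whole reads were recovered from the steps between FPKM values for 17688 of the 17688 genes above 0, up to a common divisor for each gene. Size factors were medians of ratios over genes detected in every library that averaged 1 FPKM or more. The values log2(scaled FPKM + 0.1) were fitted with limma 3.58.1 (lmFit, eBayes with trend) in R 4.3.3, and fold changes are on that scale. P values were adjusted by Benjamini-Hochberg over the 12889 genes tested. The procedure was tested on simulated data. Shares and ratios were tested by exact permutation with scipy 1.17.1.

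The members and gene lists were chosen with earlier results of these data known. All 10 members are named, and from each other list the 3 largest increases and 3 largest decreases among genes that averaged 1 FPKM or more and had a call and an adjusted P under 0.05. The design text calls the libraries biological replicates, and the labels do not say whether same-numbered libraries were handled together. The main fit did not pair them. Alternatives were other scalings, pseudocounts, filters and thresholds, limma voom on recovered reads, a replicate block and each library left out.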

Additional observations from a re-analysis of the deposited data

How the results depend on the processing

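Foxo3, Foxo4, Sirt2, Sirt5 and Sirt6 kept a negative and Sirt4 a positive log2 fold change in every alternative in which they were tested (Sirt5 was not tested at a mean FPKM of at least 1). The others turned sign. Sirt1 was -0.14 and Sirt7 -0.21 with libraries scaled to the same sum, and Foxo1 was 0.19 with quantile normalization. Sirt3 was 0.31 with quantile normalization and 0.0099 with limma voom on recovered reads, and it ran from -0.15 to 0.17 as single libraries were left out. The cause was not tested.

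Members called higher numbered 2 and became 0 on FPKM as deposited, 0 with equal sums and 1 with a pseudocount of 1, and 1 to 3 as single libraries were left out. Members called lower numbered 2 and became 6, 7 and 1 under the same settings, and 4 with no fold change threshold at an unadjusted or an adjusted P under 0.05. Leaving out single libraries gave 0 to 4, the 0 without Al replicate 1 and the 4 without control replicate 3. Over all genes, 3375 were called higher and 3143 lower, against 1805 and 5417 on FPKM as deposited and 1200 and 6843 with equal sums. Called FoxO targets went from 17 to 11 with equal sums and to 10 with quantile normalization, and called NAD+ genes from 12 to 7 with quantile normalization and to 7 with a pseudocount of 1.

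The same-numbered libraries of the groups did not deviate together across genes (r = -0.03, -0.03 and -0.07), which cannot show whether they were handled together. A fit with the replicate block called 2 members higher and 2 lower, as without it, and 3352 genes higher and 3123 lower. The number of reads limits Sirt5 most, at 22 to 31 in the Al group.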

Other observations

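Some gene groups within the lists were singled out after their values were seen, and their values are given as a description. All 6 listed 14-3-3 genes, whose proteins hold FoxO factors in the cytosol, had higher scaled FPKM in every Al library than in every control library, as did 35.1% of all genes. Ywhae, Ywhaq, Ywhag and Ywhab were called higher at log2 fold changes of 1.06, 0.85, 0.77 and 0.62, and Ywhah at 0.57 and Ywhaz at 0.25 were under the threshold, beside 26.2% of all genes called higher. With libraries scaled to the same sum only Ywhae, at 0.27, and Ywhaq, at 0.07, of these 6 stayed positive. The calls of all 4 were lost on FPKM as deposited and with quantile normalization, and that of Ywhab also without control replicate 2, Al replicate 1 or Al replicate 2, at 0.55 to 0.57.

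The 4 class IIa histone deacetylases, Hdac4, Hdac5, Hdac7 and Hdac9, were all called lower, at -1.04, -0.70, -1.03 and -1.10, beside 24.4% of all genes, and were lower in all 4 scalings, and the call of Hdac5 was lost without Al replicate 1, at -0.56, and that of Hdac9 with a pseudocount of 1, at -0.57. Of the class I genes, Hdac1 and Hdac2 were at 0.35 and 0.45, were not called and turned to -0.14 and -0.04 on FPKM as deposited. Hdac8, also of class I, was called lower with size factors, and its call was lost with a pseudocount of 1, at -0.57. The classes were thus not split by their calls. Nampt, the rate-limiting enzyme of NAD+ salvage, was called lower at -0.61, with 7.46, 9.19 and 10.5 scaled FPKM in the control libraries against 4.74, 5.93 and 7.11 in the Al libraries, but the call was lost with quantile normalization, at -0.44, with a pseudocount of 1, at -0.54, without control replicate 3, at -0.51, and without Al replicate 1, at -0.46. Ppargc1a, which encodes PGC-1α, a Sirt1 substrate, was at -0.42 with size factors (limma adjusted P = 0.0243), under the fold change threshold. This miss holds for size factors only, as the median gene moved by -0.46 on FPKM as deposited and by -0.75 with equal sums. The authors, with their own test, report PGC-1α RNA as lower after aluminum.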
